A study of Rattus norvegicus with 145 samples.

Results

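Medium spiny neurons are the projection neurons of the striatum, and 6 genes that mark them are described here in a rat model of Huntington's disease: Drd1, Tac1, Drd2, Adora2a, Penk and Ppp1r1b. The genes were chosen by name and kept where their mean level in wild-type (WT) striatum at 19 months was at least 3 times that in WT cortex of the same age. All 6 were kept and 0 were dropped, out of 32883 gene identifiers in the tables. The identifiers are ENSRNOG00000023688 for Drd1, ENSRNOG00000007374 for Tac1, ENSRNOG00000008428 for Drd2, ENSRNOG00000001302 for Adora2a, ENSRNOG00000008943 for Penk and ENSRNOG00000028404 for Ppp1r1b. Messenger RNA of brain tissue was measured by bulk RNA sequencing in Long Evans rats that were WT or heterozygous for a Q130 knock-in (KI) allele, and no homozygous animals were among these samples. There were 63 libraries of striatum (2, 6, 10, 19 and 24 months of age), 51 of cortex (10, 19 and 24 months) and 31 of cerebellum (19 and 24 months). Each genotype had 10 animals at 10 and at 19 months, females and males in equal number; the 24-month groups held 3 female and 4 male KI animals and 2 females and 2 males of the WT. The striatum libraries of 2 and 6 months came from 3 males per genotype of an earlier series, which the submitters added as a check on the pipeline. The 19-month animals carry identifiers of a different form from those of 10 and 24 months, so age and animal series cannot be told apart.

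The striatum receives dopamine, and its medium spiny neurons pass the signal on by 2 routes. Neurons of the direct pathway carry the dopamine receptor encoded by Drd1 and make substance P from Tac1. Neurons of the indirect pathway carry the dopamine receptor encoded by Drd2 and the adenosine receptor encoded by Adora2a, and make enkephalin from Penk. Ppp1r1b, present in both kinds, encodes a phosphatase inhibitor that is switched by dopamine and cAMP signalling. Loss of these transcripts is a well-known feature of mouse models of Huntington's disease and of the human disease. The loss is known to reach indirect pathway neurons early.

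The level of all 6 genes moved together across striatum libraries, as shown further on, so the promoters were looked up in the RefSeq promoter table (GRCr8). Windows were found for 3 of the 6 genes, Drd1, Drd2 and Tac1, and only that of Drd2 lay wholly outside its own gene's span. The Drd2 window is shown for that reason alone. The 250 bases before the start of Drd2 lie at chr8:58605153-58605402 on the plus strand and read, 5′ to 3′, with matches to the GC box GGGCGG on either strand in capitals:

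Drd2: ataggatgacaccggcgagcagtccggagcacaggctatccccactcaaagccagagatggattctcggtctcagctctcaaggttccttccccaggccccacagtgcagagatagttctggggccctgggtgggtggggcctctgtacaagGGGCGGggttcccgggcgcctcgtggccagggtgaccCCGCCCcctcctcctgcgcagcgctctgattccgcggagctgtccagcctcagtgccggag

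The window is 66.0% G or C, against a median of 51.2% over all windows of the table. The GC box occurs on the plus strand 98 to 93 bases before the start and on the minus strand 61 to 56 bases before it. At least 1 GC box on either strand was present in 30.5% of 33469 windows of the same length. Neither the cAMP response element TGACGTCA (1.59% of windows) nor its shorter form TGACG, which the longer one contains (18.2% of windows), was found on either strand of the Drd2 window.

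Libraries held 25.6 to 47.3 estimated counts in units of 1000000. Each gene passed the filter on low counts in all 5 striatal fits, so 6 of 6 were tested at every age. A library was called outlying where its mean rank correlation with libraries of the same region and age fell short of the median by over 5 scaled median absolute deviations. This marked 10 libraries, 5 of them in striatum: KI M2 at 2 months, WT M2 at 10 months, KI M3 and WT M4 at 19 months and KI M4 at 24 months. Such labels number the libraries within each region, age and genotype, and the same label in another region can be a different animal. All 10 outlying libraries had a negative slope of their deviations on transcript length, from -0.48 to -0.12 (Spearman rho across genes). Libraries that were not outlying also had slopes in this range, so it does not mark the outlying ones. Among them were KI M5 in cortex at 10 months (-0.40) and KI F5 in striatum at 19 months (-0.37). A score of cortex-enriched genes (mean log2 CPM of genes at least 4-fold higher in WT cortex than in the other regions) was used to follow cortical RNA in striatum libraries. In the 24-month striatum libraries KI M1 and KI M2 this score was 0.80 and 1.26, against at most 0.46 in the other KI libraries and 0.19 in the WT libraries. At 19 months it was 1.01 in the striatum library KI M5 and at most 0.28 in the WT libraries. Comparisons of KI with WT within 1 region and 1 age were also fitted without these libraries. The tests of age, sex and region were not.

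All 6 genes stood far higher in striatum than elsewhere, and the order of their levels was led by Ppp1r1b and Penk. Levels are given as TPM, a share of all transcripts scaled to 1000000 per library and corrected for transcript length, so genes can be compared. In WT striatum at 19 months Ppp1r1b stood at 1929 ± 217 TPM, Penk at 1574 ± 267 TPM and Tac1 at 261 ± 43.0 TPM (mean ± SD, n = 10). The receptors stood lower, Adora2a at 222 ± 29.8 TPM, Drd2 at 191 ± 21.4 TPM and Drd1 at 139 ± 37.8 TPM (mean ± SD, n = 10). Among 32883 listed identifiers these levels ranked 27, 32, 404, 499, 592 and 855, in the same order. The ranges of neighbours in this order overlapped, with 1 exception: the lowest Penk library, at 1040 TPM, lay above the highest Tac1 library, at 306 TPM.

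The ratio of mean level in striatum to cortex in WT animals at 19 months was 28.8 for Drd2, 25.2 for Adora2a, 18.3 for Drd1, 13.3 for Tac1, 12.3 for Penk and 11.5 for Ppp1r1b. These values chose the genes and are a description. None lay near the limit of 3, and Ppp1r1b at 11.5 was the closest. The cortex mean at that age was raised in part by 1 library, WT M1, which was the highest for all 6 genes (Drd1 at 19.3 TPM, the next library at 9.76 TPM). The WT cortex medians of all 6 genes were also higher at 19 months than at 10 or 24 months. For Drd2 they were 5.23 TPM at 19 months, 2.75 TPM at 10 months and 3.24 TPM at 24 months. In animals that the rule did not use the ratios ran from 11.8 (Tac1) to 49.3 (Drd2) at 10 months and from 9.46 (Ppp1r1b) to 39.4 (Drd2) at 24 months. Cerebellum differed between the genes: WT libraries of 19 months held 189 ± 8.77 TPM of Ppp1r1b and 95.7 ± 9.49 TPM of Penk, but only 1.28 ± 1.22 TPM of Tac1 (SD, n = 10). The levels of the other genes there were 2.77 ± 0.888 TPM for Drd1, 2.66 ± 0.328 TPM for Drd2 and 3.81 ± 0.762 TPM for Adora2a (SD, n = 10).

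**Figure D1:**
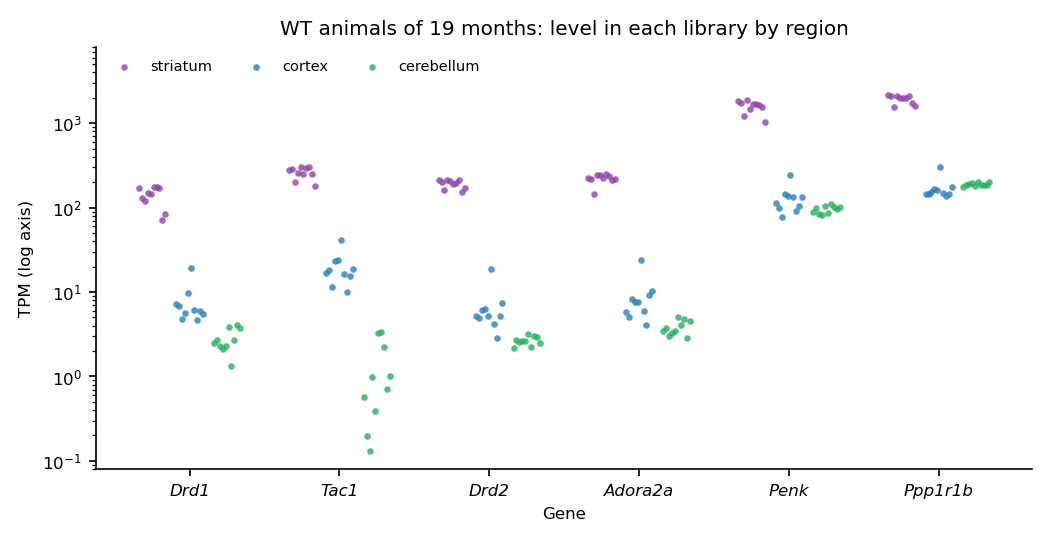
Level of each gene (TPM, log axis) in single WT libraries of 19 months, coloured by region (n = 10 per region). The striatum points of every gene lie above its cortex and cerebellum points, and Tac1 in cerebellum spreads from 0.13 to 3.38 TPM.

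With age, the levels in WT striatum did not pass the test in either direction. From 10 to 19 months all 6 were higher, by log2 differences of 0.16 (Ppp1r1b) to 0.40 (Drd1), with edgeR adjusted p from 0.121 to 0.483. The count of genes called in that comparison was 783 of 15266 (5.13%), and 0 of the 6 were among them. From 19 to 24 months all 6 were lower, by -0.33 (Tac1) to -0.45 (Adora2a), with edgeR adjusted p from 0.180 to 0.488 and 0 of 6 called against 0.236% of all genes. From 10 to 24 months the log2 differences lay between -0.26 and 0.01, with 0 of 6 called (0.0255% of all genes). In these bulk libraries fewer medium spiny neurons and less RNA per neuron cannot be told apart, here and in every comparison below.

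Whether the knock-in allele lowers these transcripts in striatum was asked at 5 ages. None of the 6 genes was called at any age with edgeR, where a call is a Benjamini-Hochberg adjusted p under 0.05 over all genes tested. The direction of the estimates went from higher in KI at 2 months to lower in KI at 19 and 24 months, and the widest differences, at 24 months, rested on few WT animals with a wide spread. At 6 and 10 months the estimates stood on both sides of 0. At an unadjusted p under 0.05 the edgeR counts were 4 of 6 at 2 months (6.22% of all genes), 0 at 6 and 10 months (8.22% and 5.78%) and 1 at 19 and 24 months (1.7% and 2.99%). Because the 6 genes vary together, as shown further on, such counts are not of separate results, here or below. DESeq2 called 1 of the 6 at 2 months and 0 at the other ages.

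**Figure D2:**
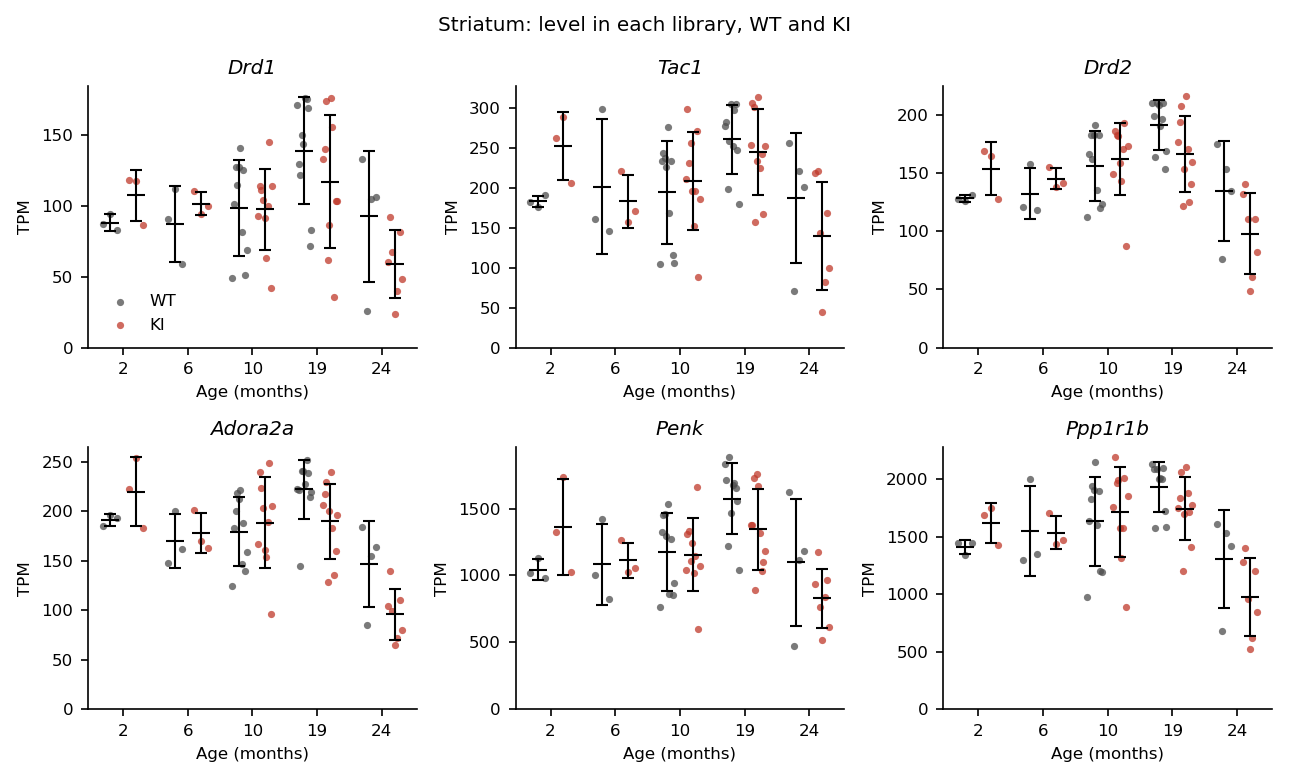
Level (TPM) of each gene in every striatum library by age, WT in grey and KI in red, with mean and SD bars (n = 3 per genotype at 2 and 6 months, 10 at 10 and 19 months, 7 KI and 4 WT at 24 months). KI points at 2 months lie mostly above WT, and at 24 months the highest KI point of Drd1 is at 91.8 TPM while 3 of the 4 WT points lie at 105 TPM or above.

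At 2 months all 6 genes were higher in KI, Tac1 by the most. Tac1, the substance P precursor, stood at 263, 289 and 206 TPM in KI M1, M2 and M3 and at 183, 176 and 191 TPM in the 3 WT libraries. Every KI library lay above every WT library, and Tac1 was the only one of the 6 without overlap, a state shared by 10.4% of all 15407 genes tested. Its log2 difference was 0.45 ± 0.105 (SE; edgeR p = 0.00215, adjusted p = 0.784). Drd1, the other direct pathway gene, stood at 118, 118 and 86.2 TPM in KI M1, M2 and M3 and at 86.8, 94.4 and 82.9 TPM in WT. KI M1 and M2 were high and KI M3 lay among the WT libraries. This split recurred: KI M1 and M2 lay above all WT libraries for each of the 6 genes. KI M2 was one of the outlying libraries.

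For the indirect pathway at 2 months, Penk, the enkephalin precursor, had a log2 difference of 0.38 ± 0.185, Drd2 of 0.26 ± 0.0875 and Adora2a of 0.19 ± 0.0950 (SE, n = 3). Ppp1r1b differed by 0.20 ± 0.0712 (SE, n = 3). The number at an unadjusted p under 0.05 was 4 of 6 against 6.22% of all 15407 genes, and at the adjusted threshold 0 of 6 were called by edgeR against 0% of all genes. The median over the 6 was 0.27, against 0.00 over all genes and 0.09 over 231 other striatum-enriched genes (at least 4-fold higher in WT striatum than in both other regions). DESeq2 called Tac1 (adjusted p = 0.00579). Without KI M3 edgeR called 3 of the 6, Tac1 at 0.57, Drd1 at 0.40 and Drd2 at 0.37 (adjusted p = 0.0147 for Tac1 and 0.0353 for the others), and without the outlying KI M2 it called 0, with Penk at 0.17. Across the alternatives at this age at most 36 genes were called, in the fit without KI M3. KI M3 was the KI library closest to WT, at 95.9% to 113% of the WT mean, so leaving it out widens the differences.

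At 6 months the genotypes could not be separated for these genes. Drd1 stood at 110, 93.8 and 100 TPM in KI and at 90.6, 112 and 59.1 TPM in WT. The WT libraries spanned the KI libraries on both sides. Tac1 stood at 221, 158 and 172 TPM in KI and at 161, 299 and 146 TPM in WT, where WT M2 alone was high. Log2 differences ran from -0.15 (Tac1) to 0.20 (Drd1), with 0 of 6 called against 0.013% of all genes (edgeR). None of the 6 was free of overlap between the genotypes, a state of 12% of all genes.

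At 10 months, with 10 animals per genotype, the 6 genes stood at nearly the same mean in both genotypes. Log2 differences lay between -0.02 (Penk) and 0.11 (Tac1), with 0 of 6 called against 0.00654% of all genes (edgeR). For Drd2 the lowest, median and highest libraries were 87.4, 172 and 193 TPM in KI and 112, 164 and 191 TPM in WT. The 95% interval of its difference ran from -0.20 to 0.35. For Drd1 these libraries were 41.8, 102 and 145 TPM in KI and 48.9, 108 and 141 TPM in WT, with an interval from -0.45 to 0.44. The spread was wide within both genotypes. In KI M4 all 6 genes stood at 42.4% to 56.1% of the WT mean, and in WT F1, M4 and M5 all 6 stood at 88.8% of it or below.

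At 19 months all 6 genes were lower in KI, by smaller amounts than at 24 months. Drd2 had the narrowest interval. For Drd2 the lowest, median and highest libraries were 122, 165 and 216 TPM in KI and 153, 198 and 210 TPM in WT, and 8 of 10 KI libraries lay below the WT median. Its log2 difference was -0.16 ± 0.0674 (SE, n = 10; edgeR p = 0.0281, adjusted p = 1), which is 89.5% of WT with a 95% interval of 81.2% to 98.7%. For Adora2a they were 129, 198 and 240 TPM in KI and 145, 225 and 252 TPM in WT, -0.19 ± 0.0962 on the log2 scale (SE, n = 10; adjusted p = 1, edgeR). The groups overlapped for every gene. Penk differed by -0.18 ± 0.112, Ppp1r1b by -0.10 ± 0.0823 and Tac1 by -0.04 ± 0.119 (SE, n = 10).

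Drd1 at 19 months was the most scattered of the 6. The lowest, median and highest libraries were 35.9, 118 and 176 TPM in KI and 71.3, 147 and 176 TPM in WT, a log2 difference of -0.24 ± 0.185 (SE, n = 10). In KI M3 Drd1 stood at 25.8% of the WT mean while Tac1, made by the same neurons, stood at 93.1% and Ppp1r1b at 88.6%. The indirect pathway genes lay between in that library, Drd2 at 65.4%, Adora2a at 61.0% and Penk at 65.6%. In WT M4 it stood at 51.3% while the other 5 genes stood at 80.2% to 99.0%. Both libraries were outlying, with length slopes of -0.44 and -0.37, and across the 20 libraries of this age the Drd1 residual correlated with the length slope (r = 0.764). That of Drd2 did not to this extent (r = 0.154). Without the outlying libraries the Drd1 difference was -0.21 and 0 of 6 were called. Without KI M5, the library of highest cortex score, the differences ran from -0.23 (Drd1) to -0.05 (Tac1), again with 0 of 6 called. At this age 0 of 6 were called against 0.0196% of all genes; the median over the 6 was -0.17, against 0.01 over all genes and -0.07 over 234 other striatum-enriched genes.

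At 24 months the estimates were furthest below 0 and least precise, with KI at 59.2% of WT for Drd1, 61.0% for Adora2a, 66.6% for Drd2 and for Tac1, 69.0% for Ppp1r1b and 71.0% for Penk (edgeR). None was called, and neither was any other gene (0% of 15645). Adora2a stood at 105, 140 and 98.7 TPM in the KI females F1, F2 and F3 and at 65.2, 71.8, 111 and 79.9 TPM in the KI males M1, M2, M3 and M4. In WT it stood at 184 and 84.6 TPM in the females F1 and F2 and at 155 and 164 TPM in the males M1 and M2. KI M1, M2 and M4 lay below every WT library, WT F2 lay below 4 of the 7 KI libraries, and the groups overlapped. The log2 difference was -0.71 ± 0.245 (SE; edgeR p = 0.0144, adjusted p = 0.998).

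Drd1 at 24 months stood at 60.4, 91.8 and 67.0 TPM in the KI females and at 23.3, 39.9, 81.3 and 48.2 TPM in the KI males. In WT it stood at 133 and 25.9 TPM in the females and at 105 and 106 TPM in the males. Apart from WT F2 every WT library lay above every KI library. Its 24-month log2 estimate was -0.76 ± 0.432 (SE; adjusted p = 0.998, edgeR), with a 95% interval from -1.71 to 0.20. Ppp1r1b stood at 1281, 1397 and 956 TPM in the KI females, at 519, 615, 1200 and 845 TPM in the KI males, at 1607 and 678 TPM in the WT females and at 1529 and 1414 TPM in the WT males. All 7 KI libraries lay below the WT median for Drd1, Drd2, Adora2a and Ppp1r1b, 6 of 7 for Penk and 5 of 7 for Tac1. The genotypes overlapped for each of the 6, and did not overlap for 0.582% of all genes. The median over the 6 was -0.59, against 0.01 over all genes and -0.44 over 277 other striatum-enriched genes, of which 246 were lower in KI.

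**Figure D3:**
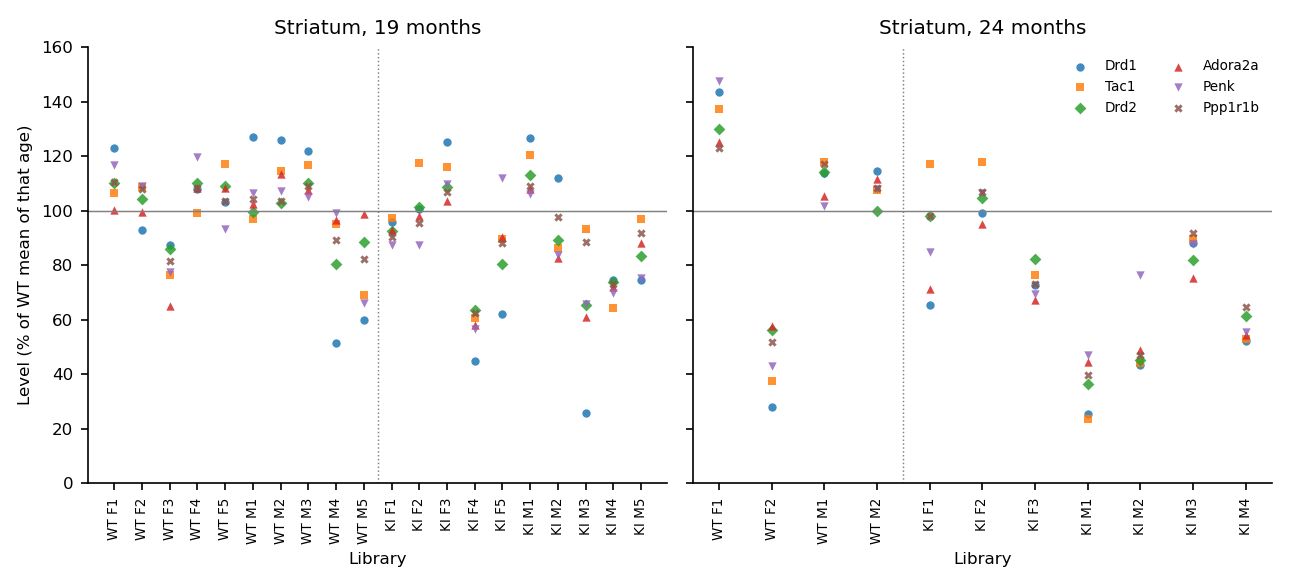
Each striatum library of 19 months (left) and 24 months (right) by its level of the 6 genes, as percent of the WT mean of that age (n = 10 per genotype at 19 months, 7 KI and 4 WT at 24 months). At 24 months 5 of the 7 KI libraries (F3, M1, M2, M3 and M4) and WT F2 lie below the WT mean for all 6 genes, and at 19 months Drd1 falls away from the other genes in WT M4 and KI M3, where it stands at 51.3% and 25.8%.

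The 24-month values turned on a few animals. WT F2 stood at 28.1% (Drd1) to 57.7% (Adora2a) of the WT mean, and its cortex score, 0.19, was not apart from the other WT libraries. Without WT F2 the log2 differences were -1.12 for Drd1, -0.95 for Tac1, -0.94 for Adora2a, -0.85 for Drd2, -0.80 for Ppp1r1b and -0.77 for Penk, still with 0 of 6 called (lowest edgeR adjusted p = 0.192). Leaving out other WT animals brought the estimates closer to 0: without WT M1 Drd2 was -0.36, Tac1 -0.33 and Ppp1r1b -0.33, and without WT F1 Penk was -0.29. KI M1 and M2 stood at 23.7% to 76.4% of the WT mean and carried the highest cortex scores. Without them the log2 differences were -0.43 for Drd1, -0.51 for Adora2a, -0.36 for Penk, -0.30 for Drd2, -0.24 for Ppp1r1b and -0.21 for Tac1. With the cortex score as a covariate they ran from -0.51 (Adora2a) to -0.22 (Tac1), and without the outlying KI M4 from -0.72 (Drd1) to -0.44 (Penk). The part of cortical tissue in the 24-month difference was not tested beyond these values.

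**Figure D4:**
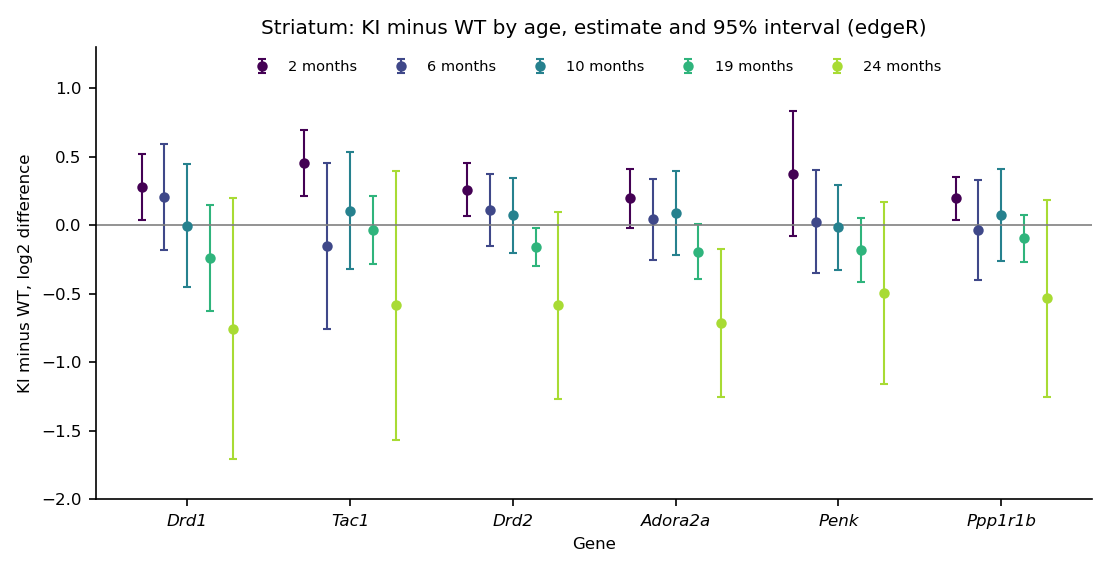
KI minus WT log2 difference of each gene in striatum at the 5 ages, with 95% intervals from edgeR. The points at 2 months lie above 0, those at 19 and 24 months lie below 0, and the intervals at 24 months are the widest, from -1.71 to 0.20 for Drd1.

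Averaged over the ages, none of the 6 was called. The mean of the 5 differences ran from -0.12 (Adora2a) to -0.03 (Tac1) on the log2 scale, with 0 of 6 called against 0.0121% of all genes (edgeR). Over 10, 19 and 24 months, the ages with both sexes, it ran from -0.33 (Drd1) to -0.16 (Tac1), again with 0 of 6 called against 0.0425% of all genes and 4 of 6 at an unadjusted p under 0.05 against 8.72% of all genes. These 4 are not separate results, since the genes vary together. The median over the 6 was -0.23, and that over 204 other striatum-enriched genes was also -0.23. Those 204 were chosen by WT libraries of 19 and 24 months that also enter the WT side here. Their median may therefore lean towards lower in KI. The smallest p was that of Adora2a, at -0.28 ± 0.0890 (SE; edgeR p = 0.00301, adjusted p = 0.301). The 95% interval put its KI level between 73.0% and 93.4% of WT, that of Drd2 between 75.8% and 97.2%, and that of Tac1 between 73.7% and 108%. Without the pair of 24-month libraries of highest cortex score the means lay between -0.24 (Drd1) and -0.06 (Tac1).

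The change of the genotype difference with age was tested directly. Between 10 and 24 months it differed by -0.78 ± 0.230 for Adora2a (SE; edgeR p = 0.00122, adjusted p = 0.413) and by -0.46 to -0.73 for the other genes. None was called, and neither was any other gene (0% of 16474). Between 10 and 19 months it differed by -0.29 (Adora2a) to -0.15 (Tac1), with edgeR adjusted p = 1 for each and 0% of all genes called. The KI difference in males was below that in females for all 6, by -0.29 (Penk) to -0.62 (Tac1) over 10, 19 and 24 months. None passed (edgeR adjusted p = 0.959 for each, 0% of all genes called). At an unadjusted p under 0.05 edgeR gave 4 of 6 for sex against 4.86% of all genes. For the change with age it gave 3 of 6 from 10 to 24 months (6.48%) and 0 from 10 to 19 months (2.8%). The 6 genes vary together, so these counts are not of separate results. The fit for the change with age pooled the spread of all 5 ages. Its SE for Adora2a from 10 to 24 months (0.230) lay below that of the 24-month difference alone (0.245). The p-values of that change are therefore likely too small. At 24 months alone the log2 differences in males were -1.27 for Drd1, -1.25 for Tac1, -1.11 for Adora2a, -1.08 for Drd2, -1.04 for Ppp1r1b and -0.80 for Penk. In females they ran from -0.24 (Adora2a) to 0.27 (Tac1). The low WT F2 was 1 of the 2 WT females, and KI M1 and M2 were 2 of the 4 KI males.

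Ratios between genes of the direct and indirect pathway were close in the 2 genotypes and were not tested. The ratio of Drd1 to Drd2 in TPM was 0.589 in KI and 0.613 in WT at 24 months, 0.649 and 0.702 at 19 months and 0.585 and 0.605 at 10 months (geometric means). Single libraries ranged from 0.343 to 0.790 in WT at 24 months, so the differences between genotypes lay within the spread. The ratio of Tac1 to Penk, the peptide genes of the direct and indirect pathway, was 0.153 in KI and 0.168 in WT at 24 months, 0.183 and 0.166 at 19 months and 0.178 and 0.161 at 10 months. Single KI libraries at 24 months ranged from 0.0860 to 0.235. Adora2a to Drd2, a pair within the indirect pathway, gave 1.01 in KI and 1.10 in WT at 24 months, and both genotypes stood lower than at 2 months, where it was 1.43 and 1.49.

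The 6 genes varied together from animal to animal within groups. After removing the mean of each genotype, age and sex, the 15 pairs had Pearson r from 0.739 (Drd1 with Ppp1r1b) to 0.958 (Tac1 with Ppp1r1b) over the 63 striatum libraries. Spearman rho ran from 0.677 to 0.927, and every pair gave p = 1.0e-05, the smallest that the permutation test with 100000 resamples can give (adjusted p = 1.8e-05 over 27 relations). Genes of one pathway were not set apart: Tac1 tracked Ppp1r1b and Drd2 (r = 0.929) more closely than Drd1 (r = 0.763). Without the 2 libraries farthest from the median the lowest r was 0.764. The lowest r within an age was 0.658 at 2 months and 0.369 at 6 months (6 libraries each), 0.891 at 10 months and 0.825 at 24 months. At 19 months it was -0.07, for Drd1 with Ppp1r1b, and the 5 lowest pairs of that age all held Drd1. These correlations describe a shared variation and name no source. The permutation took the residuals as exchangeable, although group means had been removed from them, so its p-values are likely too small.

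Measures of tissue and RNA moved with this shared variation to a lesser extent. Over all 63 libraries the cortex score correlated with each gene negatively, from r = -0.256 (Penk; rho = -0.327; permutation p = 0.0430, adjusted p = 0.0505) to r = -0.507 (Ppp1r1b; rho = -0.514; permutation p = 4.0e-05, adjusted p = 6.7e-05). Without the 2 libraries farthest in cortex score these were -0.339 and -0.558. Within the ages of 20 libraries the correlation with Ppp1r1b was -0.778 at 10 months and -0.207 at 19 months. The sign was not the same at every age: at 19 months r was 0.172 for Drd1 and 0.0759 for Adora2a, and over the 6 libraries of 6 months it ran from 0.542 to 0.943 for the 6 genes. The slope on transcript length correlated with Drd1 at r = 0.289 (rho = 0.305; permutation p = 0.0214, adjusted p = 0.0289) and with Ppp1r1b at r = -0.261 (rho = -0.246; permutation p = 0.0379, adjusted p = 0.0466). Without the 2 libraries farthest in slope they were 0.196 and -0.219. The permutation p-values here carry the same limit as above, and those near 0.05 should not be read as passing.

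The genes whose animal-to-animal pattern was most like the mean of the 6 were picked by a rule of highest Pearson r over the 63 libraries among 14115 genes. They were ENSRNOG00000016962 (r = 0.966) and ENSRNOG00000029441 (r = 0.964), for which no symbol was at hand. The first stood at 42.0 TPM in WT striatum and 7.09 TPM in WT cortex at 19 months and is striatum-enriched. The second stood at 185 and 107 TPM and is not. Among the 100 genes of highest r, all at 0.890 or above, 13 were striatum-enriched, against 202 of all 14115. Ranked from single genes of the 6, Ppp1r1b was the closest of 14120 genes to Tac1, and Ppp1r1b and Tac1 ranked 3 and 7 from Drd2. Drd1 stood apart, since the closest of the other 5 to it, Drd2, ranked 337.

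In cortex none of the 6 was called at any age by edgeR or DESeq2; at an unadjusted p under 0.05 edgeR gave 1 of 6, Adora2a at 24 months, against 5% of all genes at that age. Group means there ran from 2.66 to 8.83 TPM for the receptors, from 14.4 to 20.5 TPM for Tac1, from 63.7 to 128 TPM for Penk and from 125 to 168 TPM for Ppp1r1b. The log2 differences at 10 and at 19 months ran from -0.22 to -0.01 and from -0.23 to 0.02, with 0 of 6 called and 0% of all genes called at each (edgeR). At 24 months Adora2a stood at 3.32 ± 0.524 TPM in KI (SD, n = 7) and 4.79 ± 0.938 TPM in WT (SD, n = 4), with 6 of 7 KI libraries below every WT library. The log2 difference was -0.46 ± 0.143 (SE; edgeR p = 0.00728, adjusted p = 0.765), and 0% of 15437 genes were called. For Drd2 and Ppp1r1b too 6 of 7 KI libraries lay below every WT library, at log2 differences of -0.29 and -0.09. Drd1 differed by -0.21, Tac1 by 0.03 and Penk by 0.17, with 2 KI libraries above every WT library and 1 below for Penk. The mean score of striatum-enriched genes was 0.02 in KI and 0.13 in WT cortex at that age. With this score as a covariate Drd2 was -0.16, Ppp1r1b -0.04 and Tac1 0.14. The groups of 7 and 4 did not overlap for 0.466% of all genes, and for none of the 6. The genotype difference in striatum minus that in cortex, tested within animals over 10, 19 and 24 months, ran from -0.21 (Drd1) to -0.02 (Adora2a), with 0 of 6 called against 0.00598% of all genes (edgeR adjusted p from 0.963).

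In cerebellum Drd1 was higher in KI at both ages, and it was the only one of the 6 that edgeR called there. DESeq2 called Drd1 at both ages and also Ppp1r1b at 24 months (adjusted p = 0.0423). At 24 months Drd1 stood at 3.52, 4.42, 2.77, 4.44, 4.02, 3.54 and 4.53 TPM in KI F1, F2, F3, M1, M2, M3 and M4 and at 2.30, 2.05, 2.71 and 2.98 TPM in WT F1, F2, M1 and M2. Of the 7 KI libraries 6 lay above every WT library, and KI F3 lay within their range. It rose by 0.59 ± 0.135 on the log2 scale (SE; edgeR adjusted p = 0.0389), where 2.17% of 15381 genes were called and 1.2% were called higher. At 19 months the lowest, median and highest libraries were 2.74, 3.59 and 5.21 TPM in KI and 1.35, 2.58 and 4.11 TPM in WT, 0.48 ± 0.146 higher on the log2 scale (SE, n = 10; adjusted p = 0.0988, edgeR). There 0 of 6 were called against 2.33% of all genes. In WT animals of 19 months the striatal level of Drd1 was 50.1 times the cerebellar one.

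The call at 24 months was lost in most fits without 1 library. Leaving out any 1 of 9 of the 11 libraries (all but KI F3 and KI M3) ended it, with log2 differences from 0.50 to 0.64 and edgeR adjusted p up to 0.128 over all 11. In a comparison added once the values of both ages were known, their average, Drd1 rose by 0.54 ± 0.114 (SE; edgeR adjusted p = 0.00256), and 5.89% of 15811 genes were called. Within animals the Drd1 difference in cerebellum exceeded that in striatum by 1.02 ± 0.223 (SE; edgeR adjusted p = 0.0244; 0.56% of 16602 genes called), also added after the data were seen. Against cortex it exceeded by 0.61 ± 0.241 and did not pass (SE; edgeR adjusted p = 0.306; 1.43% of genes called). Neither test of region was refitted without the outlying or cortex-rich libraries. The score of striatum-enriched genes as a covariate left the 24-month difference at 0.59.

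**Figure D5:**
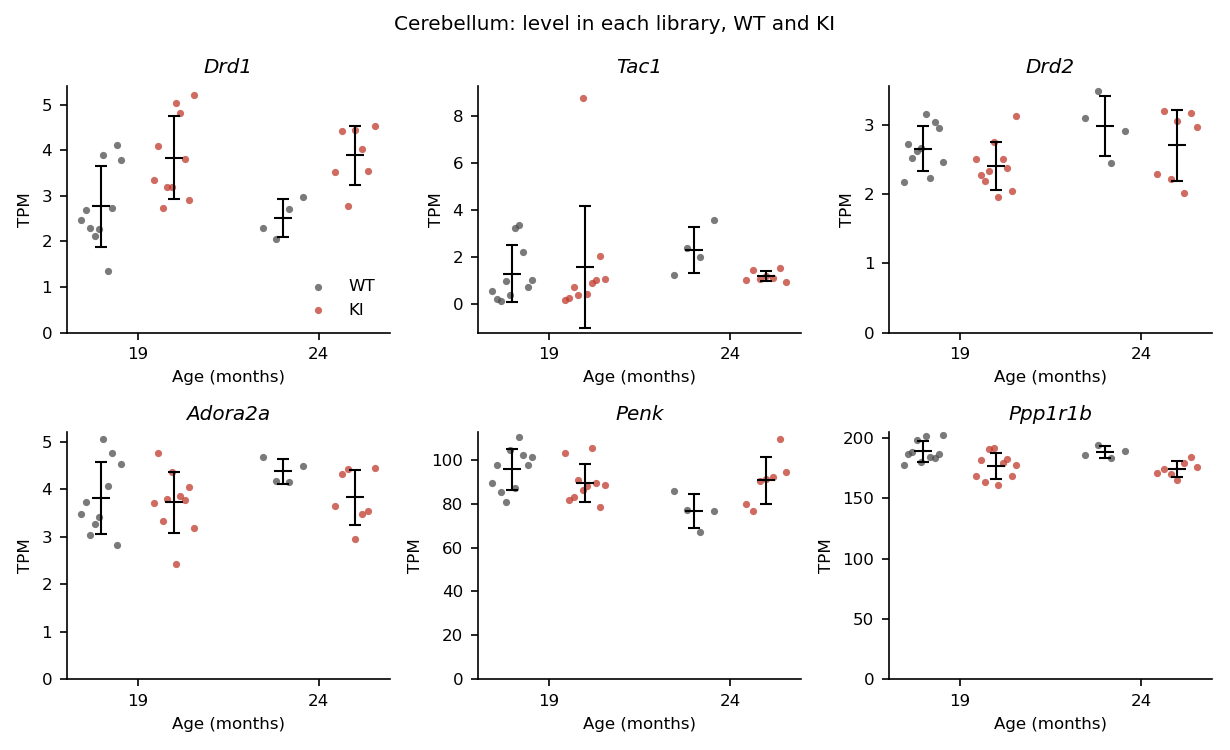
Level (TPM) of each gene in every cerebellum library at 19 and 24 months, WT in grey and KI in red, with mean and SD bars (n = 10 per genotype at 19 months, 7 KI and 4 WT at 24 months). Drd1 points of KI lie mostly above WT at both ages, and 1 KI library of 19 months stands at 8.80 TPM for Tac1.

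edgeR called none of the other 5 genes in cerebellum at either age. Ppp1r1b was lower in KI by -0.09 at 19 months and -0.14 at 24 months, where 6 of 7 KI libraries (165 to 179 TPM) lay below every WT library (183 to 195 TPM). Its mean over both ages was -0.11 ± 0.0349 (SE; edgeR adjusted p = 0.0530), and 10 of 11 alternatives called it, at -0.13 to -0.09. Tac1 at 24 months stood at 1.19 ± 0.222 TPM in KI (SD, n = 7) and 2.30 ± 0.977 TPM in WT (SD, n = 4), -0.95 ± 0.263 on the log2 scale (SE; adjusted p = 0.0926, edgeR). At 19 months its estimate of 0.46 rested on KI F5, an outlying library at 8.80 TPM where the next KI library was at 2.05 TPM, and without the outlying libraries it was -0.56. Penk was higher in KI at 24 months by 0.21 and lower at 19 months by -0.09, and Drd2 and Adora2a differed by -0.21 to -0.02 at the 2 ages. The groups did not overlap for 0.298% of all genes at 19 months and 4.14% at 24 months, and for none of the 6.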

How the data were processed

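The first deposited table holds estimated counts per Ensembl rat gene, as the authors made them, with 7.45% of values not whole, and these were rounded here because the planned tests assumed whole counts. The authors labelled the other table FPKM, but each of its libraries sums to 1000000, so the deposited values were read as TPM. Per the file headers the reference is Rat.B6.0. The aligner, the counting tool and the gene annotation are not given in the sources. The gene table used here matched 0 of 32883 identifiers, so symbols come from the rule that chose the 6 genes, and pathway and cell type lists were not tested. The 6 genes, the lists and the tests were chosen with earlier results of these data known.

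KI and WT were compared within 1 region and 1 age over all genes that passed filterByExpr, by the robust quasi-likelihood test of edgeR 4.0.16 (R 4.3.3) after TMM scaling. Sex entered the fit at 10, 19 and 24 months. Means over ages and tests of age and sex used 1 fit, and tests of region kept the animal as a block. Each library of a group came from its own animal, and p-values reflect that spread. Alternatives were RLE factors, DESeq2 1.42.0, other count filters, no sex term, limma-trend 3.58.1 on log2 TPM plus 0.1 or 1, a replicate block, fits without single libraries at 2, 6 and 24 months, each sex alone, all ages in 1 fit, a cortex score as a covariate and fits without outlying or cortex-rich libraries. Added later were the average and region tests of cerebellum, a length slope and a striatum score as covariates, the first part of the animal identifier as a block at 2 months, a striatal fit at 19 months without the KI library of highest cortex score, and cortex and cerebellum fits without outlying libraries. The named genes are the 6, and the 2 of most like pattern by Pearson r of residual log2 CPM (prior count 2). Depth was 25.6 to 47.3 counts per library in units of 1000000. The fits were also run on counts simulated from these data, with 100 genes changed by a log2 difference of 0.5 and 100 by 1. In striatum at 24 months 5 and 67 of these were called, and at 19 months 67 and 96. At 2 months 71 and 94 were called, and 18 of 183 calls were false. In cerebellum at 24 months 64 and 92 were called. The changed genes were drawn at random and simulated independently of each other, so these counts do not describe the power for the 6 genes.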

Additional observations from a re-analysis of the deposited data

Results flagged for a closer look

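WT M1 in cortex at 19 months stood apart for all 6 genes, by a gap to the next library that exceeded Dixon's 95% limit. Its levels were 19.3 TPM for Drd1 (next library 9.76), 18.8 TPM for Drd2 (next 7.51), 24.2 TPM for Adora2a (next 10.3), 246 TPM for Penk (next 145), 41.6 TPM for Tac1 (next 24.3) and 299 TPM for Ppp1r1b (next 178). Its score of striatum-enriched genes, 0.75, was also the highest among the WT cortex libraries of that age, whose mean was 0.27.

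By the same limit Tac1 in KI cerebellum of 19 months was high in F5, at 8.80 TPM with the next library at 2.05 TPM. Drd2 in KI striatum of 10 months was low in M4, at 87.4 TPM with the next at 143 TPM, and Adora2a in WT striatum of 19 months was low in F3, at 145 TPM with the next at 214 TPM. Of 96 groups tested 9 were marked, where chance marks about 1 in 20, or 4.8. The genes share libraries, so the 6 marks of WT M1 are not independent.

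For Drd1 the genotype difference in cerebellum exceeded that in striatum by 1.02 on the log2 scale within animals (edgeR adjusted p = 0.0244). In this test, added after the data were seen, 1 of the 6 genes was called against 0.56% of 16602 genes. The Drd1 estimate in striatum was below 0 and the one in cerebellum above 0 at both 19 and 24 months. The test within animals was not refitted without the outlying or cortex-rich libraries.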

How the results depend on the processing

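In striatum 0 of the 6 genes were called under each alternative at 6, 10, 19 and 24 months and for both means over ages. At 2 months DESeq2 called 1 (Tac1), and fits without 1 library called 0 to 3. In cerebellum at 19 months DESeq2 called 1 (Drd1) and the length slope as a covariate 2 (Drd1 and Ppp1r1b). At 24 months, where edgeR called 1 (Drd1), DESeq2 called 2, and 0 were called with no sex term, with limma-trend plus 1, with limma-trend without a filter, with the replicate block and with the length slope; fits without 1 library called 0 to 1. For the average over both ages 2 were called (Ppp1r1b added) with RLE factors, DESeq2, the strict filter, no sex term, the 3 limma-trend fits, without outlying libraries, and with the length slope or the striatum score.

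The labels do not say that a replicate number marks a litter or batch. At 2 months each same-numbered pair, and at 6 months only M1, also shares the first part of the animal identifier, whose meaning is not stated. At 2 months 2 of 3 pairs had correlated deviations over 0.1 and every KI library correlated best with its own number, and in the other comparisons a smaller share did. With that identifier part as a block at 2 months, added after the data were seen, 0 of 6 were called and Tac1 was 0.45 (edgeR adjusted p = 0.570). With the replicate block Drd1 in cerebellum at 24 months was 0.67 (edgeR adjusted p = 0.0966), and 0 of 6 were called in striatum at each of the 5 ages.

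None of the values that changed sign was called before or after. In striatum at 6 months Tac1 became 0.16 and Ppp1r1b 0.11 with the cortex score, 0.39 and 0.35 with the length slope, and Ppp1r1b 0.011 in each of the 3 limma-trend fits; without 1 library the ranges were -0.074 to 0.15 for Adora2a, -0.10 to 0.25 for Penk, -0.31 to 0.23 for Tac1 and -0.17 to 0.17 for Ppp1r1b. At 10 months Drd1 became 0.0056, 0.0054 and 0.0056 with limma-trend, 0.013 with the replicate block, 0.20 with the cortex score, 0.029 in females and 0.017 with the length slope, and Penk 0.079 with the cortex score and 0.0021 with the length slope. In males alone at 10 months Drd2 was -0.0046, Tac1 -0.047 and Ppp1r1b -0.11. In females alone Tac1 was 0.0029 at 19 months, and Drd2 was 0.024, Tac1 0.27 and Ppp1r1b 0.084 at 24 months. Tac1 over the 5 ages was 0.022 without the 2 KI libraries of highest cortex score. Penk in cortex at 10 months was 0.034, 0.034 and 0.034 with limma-trend, 0.013 with the replicate block and 0.047 without outlying libraries. In cortex at 19 months Tac1 was 0.0099 with no sex term, 0.077, 0.073 and 0.077 with limma-trend, 0.033 with the replicate block, 0.035 without outlying libraries and 0.0040 with the striatum score, Drd2 was 0.039, 0.029 and 0.039 with limma-trend, and Drd1 was -0.0087 without outlying libraries. Tac1 in cortex at 24 months was -0.035, -0.033 and -0.035 with limma-trend, -0.027 without outlying libraries and -0.063 to 0.13 without 1 library. Tac1 in cerebellum at 19 months was -0.032, -0.0055 and -0.032 with limma-trend, -0.17 with the replicate block, -0.56 without outlying libraries, -0.32 with the length slope and -1.16 with the striatum score.

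Over all genes the number called ranged across alternatives from 0 to 36 in striatum at 2 months (0 in the reported fit), 0 to 199 at 6 months (2), 0 to 81 at 10 months (1), 0 to 4 at 19 months (3) and 0 to 5 at 24 months (0), and from 199 to 589 (352) and 115 to 679 (334) in cerebellum at 19 and 24 months. In WT striatum from 10 to 19 months DESeq2 called 1368 (783), and from 19 to 24 months 533 (37). The 24-month comparison has 4 WT animals, and the cerebellar levels of Drd1, Drd2, Adora2a and Tac1 lie at a few TPM, where counting error adds to the spread.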
